A study of Rattus norvegicus with 2 samples.

Results

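The EGR and NR4A immediate early factors are 6 transcription factor genes, Egr1 (ENSRNOG00000019422), Egr2 (ENSRNOG00000000640), Egr3 (ENSRNOG00000017828), Nr4a1 (ENSRNOG00000007607), Nr4a2 (ENSRNOG00000005600) and Nr4a3 (ENSRNOG00000005964). They were chosen by symbol, and all 6 were found among the 25399 genes listed. Their RNA was followed in single cells of the rat meniscus, a wedge of fibrocartilage in the knee joint, in 1 library from aged and 1 library from young tissue. The labels give the age as aged or young only, and the sources used here do not state strain, sex, age in weeks, number of animals or pooling. Both libraries came from minced tissue digested with a protease and then collagenase P, strained, and sorted by flow cytometry for live cells before 3' droplet capture, so every cell had passed hours of enzymatic digestion. With 1 library per age, aging, animal and library preparation cannot be told apart, no p-value was made, and every interval covers counting error only.

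After filtering, 6085 aged cells (median 3686 UMIs, unique molecular identifiers) and 8773 young cells (median 3846) were kept, and 18 barcode sequences occurred in both libraries. Cells were gated on raw marker counts. The stromal gate (Dcn or Chad at least 2 UMIs, no Ptprc, the pan-leukocyte CD45 gene) held 558 aged and 201 young cells. It was split into Chad cells, 42 aged and 125 young, and Dcn cells without Chad, 516 aged and 76 young. The other gates held 101 aged and 1185 young Cd79a cells, 106 and 26 Jchain cells, 778 and 1146 S100a8 cells, 376 and 266 Csf1r cells, 128 and 80 Cd3e cells, 23 and 10 Cdh5 cells, and 63 and 173 Alas2 cells. In both libraries all 7 cartilage markers tested in Chad cells, all 6 fibroblast markers measured in Dcn cells, all 7 B lineage markers in Cd79a cells, all 7 monocyte or macrophage markers in Csf1r cells and all 5 T cell markers measured in Cd3e cells stood at least 3-fold above the median of the other gates. So did 6 of 7 plasma cell markers in Jchain cells (Derl3 at 0), and 6 of 7 aged and 7 of 7 young neutrophil markers in S100a8 cells (Ltf at 0 in the aged). By this rule the stromal kinds were not told apart, since aged Chad cells also passed for all 6 fibroblast markers and young Dcn cells for all 7 cartilage markers, though aged Dcn cells passed for 4 of 7. Most kept cells were not stromal, and 64.0% of aged and 63.6% of young cells passed no gate. Of these, 2668 aged and 5176 young cells carried at least 2 UMIs of Cd79b, a B cell receptor subunit. The aged Chad, young Jchain and both Cdh5 groups hold fewer than 50 cells.

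Both families belong to the immediate early genes, whose transcription starts within minutes of a stimulus without new protein synthesis. EGR proteins bind GC-rich sites through zinc fingers, are switched on through ERK, serum response factor (SRF) and its ternary complex partners at CArG boxes, and are held back by the NAB corepressors. The NR4A proteins are orphan nuclear receptors that act without a known physiological ligand and are induced by cAMP and CREB, by calcium and by antigen receptor signals. In skeletal tissue Egr1 is known as a load- and cytokine-responsive factor, Egr2 and Egr3 are better known from nerve and lymphocytes, Nr4a1 is needed by nonclassical monocytes and marks antigen receptor signalling in lymphocytes, and Nr4a2 and Nr4a3 share its DNA site. Both families are also induced by tissue dissociation.

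The stretch of 250 bases before the start of 4 of the 6 genes was read from a RefSeq promoter table (build GRCr8), because the 2 families are known for different upstream inputs. Egr3 and Nr4a3 have no entry. Of the 4, the 3 sequences below are shown since they hold the CArG boxes, the matches at shared positions and the most TGACG cores. Capitals mark matches to the CArG box, the SRF site, and to TGACG, the core of the CREB site, on either strand. They lie at chr18:26736828-26737077 on the plus strand (Egr1), chr20:21054442-21054691 on the minus strand (Egr2) and chr7:134259888-134260137 on the plus strand (Nr4a1).
Egr1: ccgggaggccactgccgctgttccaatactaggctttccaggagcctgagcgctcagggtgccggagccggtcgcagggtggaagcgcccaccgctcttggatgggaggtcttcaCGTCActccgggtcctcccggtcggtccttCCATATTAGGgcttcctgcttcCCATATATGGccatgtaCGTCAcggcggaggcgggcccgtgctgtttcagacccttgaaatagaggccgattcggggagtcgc
Egr2: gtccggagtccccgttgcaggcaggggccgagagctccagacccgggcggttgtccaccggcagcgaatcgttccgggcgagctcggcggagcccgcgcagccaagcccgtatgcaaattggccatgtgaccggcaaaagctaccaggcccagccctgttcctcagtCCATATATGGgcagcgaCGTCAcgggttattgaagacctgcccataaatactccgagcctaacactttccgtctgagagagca
Nr4a1: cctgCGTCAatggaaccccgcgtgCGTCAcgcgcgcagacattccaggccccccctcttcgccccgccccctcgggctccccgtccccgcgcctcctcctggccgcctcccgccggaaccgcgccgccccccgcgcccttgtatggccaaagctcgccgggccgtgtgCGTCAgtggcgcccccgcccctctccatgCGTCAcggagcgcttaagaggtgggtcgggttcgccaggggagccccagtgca

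Egr1 held 2 CArG boxes, at -105 to -96 and -83 to -74 counted from the start, and 2 TGACG cores on the opposite strand, at -135 to -131 and -66 to -62. Egr2 held 1 CArG box and 1 TGACG core, at -83 to -74 and -66 to -62, the same positions as in Egr1, although only 32.4% of the 250 bases were identical without gaps. Nr4a1 held no CArG box in this window and 4 TGACG cores, at -246 to -242, -226 to -222, -82 to -78 and -53 to -49. It also held 1 GCGGGGGCG, an EGR-type site, at -73 to -65 on the opposite strand. Nr4a2 held 1 TGACG core and no CArG box. Over 33469 promoters, the same window held a CArG box in 1.497%, TGACG in 18.2% and GCGGGGGCG in 2.45%. None of the 4 genes held TGACGTCA (1.59% of promoters), GCGTGGGCG (0.478%), the NR4A site AAAGGTCA (1.24%) or TATAAA (12.9%). The letters are a description of these windows and not evidence of binding.

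Egr1 was highest in Chad cells of both libraries, followed by Dcn cells in the aged and Cdh5 cells in the young library. Levels are the summed raw UMIs of a gate scaled to 1000000 (CPM), with the exact 95% Poisson interval, and are not scaled by transcript length, since 3' tags were counted. In aged cells Egr1 fell into the order Chad 6312 CPM (6034 to 6599.8), Dcn 2697 (2639 to 2755), Cdh5 1286 (1081 to 1518), S100a8 337 (318 to 358), Csf1r 231 (218 to 244), Jchain 140.2 (126 to 155), Cd3e 131 (105 to 162), Cd79a 101 (82.6 to 123) and Alas2 31.5 (20.4 to 46.5). The intervals of Jchain and Cd3e and those of Cd3e and Cd79a overlapped, whereas each other pair of neighbours in that order was separate. In young cells the order was Chad 2741 (2665 to 2818), Cdh5 1757 (1456 to 2103), Dcn 991 (938 to 1046), S100a8 299.6 (285 to 315), Csf1r 284 (267 to 302), Cd3e 236 (202 to 276), Cd79a 169 (161 to 177), Jchain 157 (131 to 186) and Alas2 33.3 (25.9 to 42.1). The S100a8 and Csf1r, the Csf1r and Cd3e, and the Cd79a and Jchain intervals overlapped. The Alas2 gate, erythroid cells, was taken as a low-expression reference. Its cells were deeper (median 11190 aged and 10753 young UMIs) than those of most other gates, so it does not measure the share of free RNA in shallower cells.

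**Figure D1:**
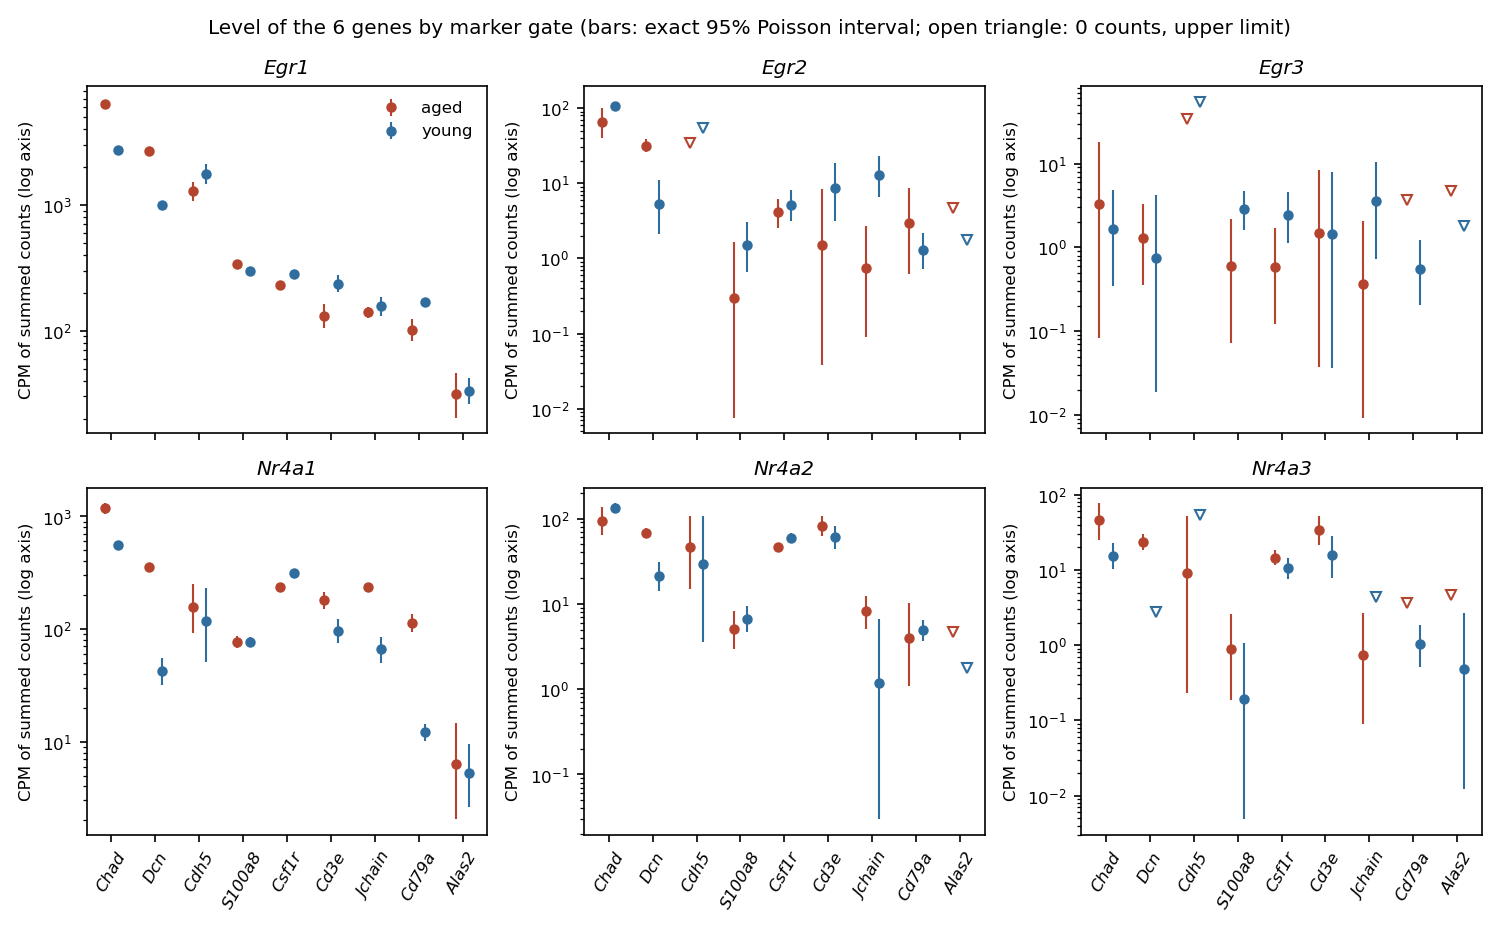
Level of each of the 6 genes in 9 separate marker gates (x axis), as CPM of summed counts on a log axis, in the aged (red) and the young (blue) library. Bars are exact 95% Poisson intervals and open triangles are upper limits where the count was 0. Egr1 runs from 6312 CPM in aged Chad cells to about 30 CPM in Alas2 cells, whereas the level of Nr4a1 in young cells is next highest, after Chad cells (552 CPM), in Csf1r cells (313 CPM).

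Nr4a1 was also highest in Chad cells, at 1178 CPM (1059 to 1306) in the aged and 552 CPM (519 to 588) in the young library. After these, the aged order was Dcn 358 (337 to 379.8), Csf1r 237 (224 to 251), Jchain 236 (218 to 255), Cd3e 180.3 (149.6 to 215), Cdh5 157 (91.6 to 252), Cd79a 113 (93.4 to 136) and S100a8 77.4 (68.3 to 87.5). In the young library Csf1r cells came next at 313 (295 to 332), then Cdh5 118 (51.0 to 233), Cd3e 96.6 (74.9 to 123), S100a8 76.8 (69.4 to 84.7), Jchain 66.1 (49.9 to 85.9), Dcn 42.3 (32.0 to 55.0) and Cd79a 12.1 (10.1 to 14.4). Neighbours from Cdh5 to Dcn overlapped in the young library. In the aged one Csf1r overlapped with Jchain, and Cd3e, Cdh5 and Cd79a overlapped in turn. Alas2 cells gave 6.30 CPM from 5 UMIs in the aged and 5.31 CPM from 11 UMIs in the young library.

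The remaining genes were much rarer. Egr2 reached 65.2 CPM (39.9 to 101) in aged and 106 CPM (91.1 to 122) in young Chad cells, 31.7 CPM (25.8 to 38.7) in aged Dcn cells, and at most 12.99 CPM in the Cd79a, Jchain, S100a8, Csf1r, Cd3e and young Dcn cells. No Egr2 UMI was found in Cdh5 cells, where few UMIs leave upper limits of 34.1 CPM in the aged and 54.5 CPM in the young library, or in Alas2 cells. Nr4a2 was highest in Chad cells (94.6 CPM aged, 132 young), followed by Cd3e cells (81.9 and 60.6), and was found at 46.0 and 58.9 CPM in Csf1r cells. The intervals of aged Chad and Cd3e cells overlapped, as did those of young Cd3e and Csf1r cells. Nr4a3 was highest in aged Chad (45.7 CPM, 14 UMIs) and aged Cd3e cells (34.3 CPM, 23 UMIs), and in young cells at 15.9 CPM in Cd3e (11 UMIs) and 15.6 in Chad cells (28 UMIs). Egr3 gave at most 15 UMIs in any gate of either library and was not compared by gate. In the cells that passed no gate it held 17 aged and 48 young UMIs, a log2 ratio of aged over young of -1.08 (-1.98 to -0.26).

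A gene was counted as measured in a gate when both libraries together held at least 20 UMIs, and as different when the CPM ratio was at least 2-fold. Over the 8 non-overlapping gates, with stromal cells undivided, 26 of the 48 pairs of gene and gate were measured, of which 5 were at least 2-fold higher in aged and none at least 2-fold lower. In stromal cells 1 of 5 measured genes (Nr4a3) was higher and 0 lower, in a gate where 9.91% of all 9395 measured genes were higher and 8.54% lower by the same rule. The split changed this picture. In Dcn cells 5 of the 5 measured genes were higher in aged, where 9.44% of 8552 measured genes were higher. In Chad cells 3 of 5 were higher (Egr1, Nr4a1 and Nr4a3), where 9.67% of 6368 were. Elsewhere 1 of 3 was higher in Cd79a cells (Nr4a1, 1.95% of all genes), 2 of 3 in Jchain cells (Nr4a1 and Nr4a2, 8.46%) and 1 of 4 in Cd3e cells (Nr4a3, 4.04%). None of 3 measured genes in S100a8 cells (3.66%) and none of 5 in Csf1r cells (5.36%) reached 2-fold, nor did the 2 measured in Cdh5 cells (13.3%) or the 1 in Alas2 cells (10%). The share of all genes at least 2-fold lower in aged was 20.8% in Cd79a, 39.9% in Jchain, 12.2% in S100a8, 6.11% in Csf1r, 13.7% in Cd3e, 18.3% in Chad, 6.86% in Dcn, 10.2% in Cdh5 and 5.15% in Alas2 cells.

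**Figure D2:**
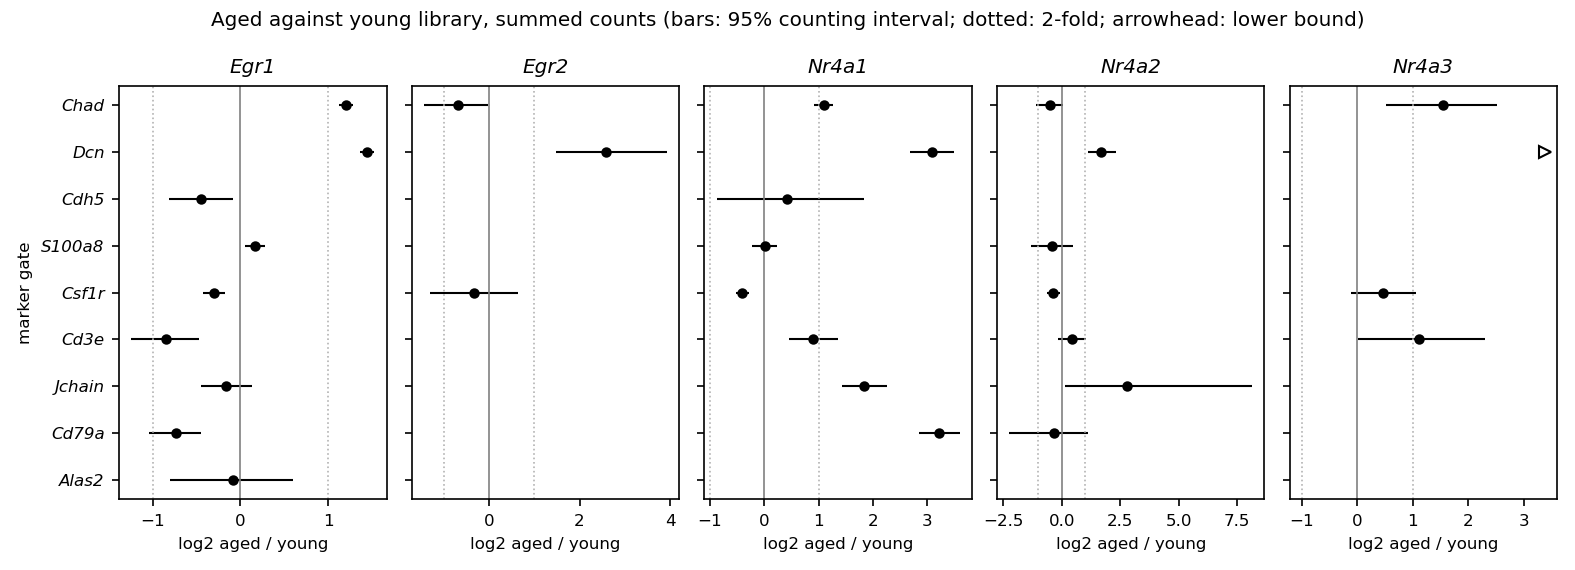
Log2 ratio of aged over young CPM for the 5 genes with at least 20 UMIs in a gate (y axis), each panel with its own x axis. Bars are exact 95% counting intervals, dotted lines mark 2-fold and the arrowhead is a lower bound against a count of 0. Egr1 lies above 1 in Chad and Dcn cells and below 0 in Cd3e and Cd79a cells, and Nr4a1 reaches 3.22 in Cd79a and 3.08 in Dcn cells.

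In Chad cells, Egr1 was 6312 CPM in the aged and 2741 CPM in the young library, a log2 ratio of 1.20 (1.13 to 1.28). In Dcn cells it was 2697 and 991 CPM, a log2 ratio of 1.44 (1.36 to 1.53). For all stromal cells together the levels were 3023 and 1999 CPM and the ratio was smaller than in either part, 0.60 (0.55 to 0.64). Chad cells, which hold more Egr1, were 42 of the 558 aged stromal cells but 125 of the 201 young ones. A comparison of undivided stromal cells mixes the level within each kind of cell with the proportion of the kinds.

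The share of cells with Egr1 and its amount in the cells that held it were then compared. Aged stromal cells were shallower (median 5706 UMIs against 15042), so each cell was thinned at random to 2000 UMIs. After thinning, 88.1% (74.4 to 96.0) of 42 aged and 84.8% (77.3 to 90.6) of 125 young Chad cells held an Egr1 UMI, and 68.3% (63.8 to 72.5) of 463 aged and 64.0% (52.1 to 74.8) of 75 young Dcn cells did. These intervals overlapped, and in Chad cells the shares lie near their ceiling, so that they could hardly have shown a difference. The cells with a UMI carried a mean of 11.5 Egr1 UMIs in aged and 5.67 in young Chad cells, and 7.70 and 3.60 in Dcn cells. Without thinning the shares were 92.9% and 96.8% of Chad and 77.1% and 86.8% of Dcn cells. The thinned Alas2 cells gave 3.17% of 63 aged and 8.19% of 171 young cells, at median depths of 11190 and 10753 UMIs before thinning.

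Nr4a1 was higher in the aged library in both kinds of stromal cell, and by more in Dcn cells. Chad cells held 361 UMIs (1178 CPM) in the aged and 994 UMIs (552 CPM) in the young library, a log2 ratio of 1.09 (0.91 to 1.27). Dcn cells held 1106 UMIs (358 CPM) and 56 UMIs (42.3 CPM), a log2 ratio of 3.08 (2.69 to 3.49), or 8.45-fold. In undivided stromal cells, 432 against 336 CPM gave only 0.36 (0.25 to 0.48). Unlike Egr1, the share of Dcn cells with a thinned Nr4a1 UMI differed between the libraries, 24.8% (21.0 to 29.0) of aged and 6.67% (2.20 to 14.9) of young cells. Without thinning the shares were 36.2% and 28.9%, at median depths of 5689 and 17445 UMIs. The 5 young Dcn cells with a thinned Nr4a1 UMI held 1 each, whereas the 115 aged ones held a mean of 2.55. In thinned Chad cells the shares were 47.6% (32.0 to 63.6) and 43.2% (34.4 to 52.4), with means of 5 and 2.26 UMIs. No thinned aged Alas2 cell held an Nr4a1 UMI (0 of 63, which allows up to 4.76% by a count of 3 and 5.69% by the exact interval) and 1.17% of the young ones did.

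**Figure D3:**
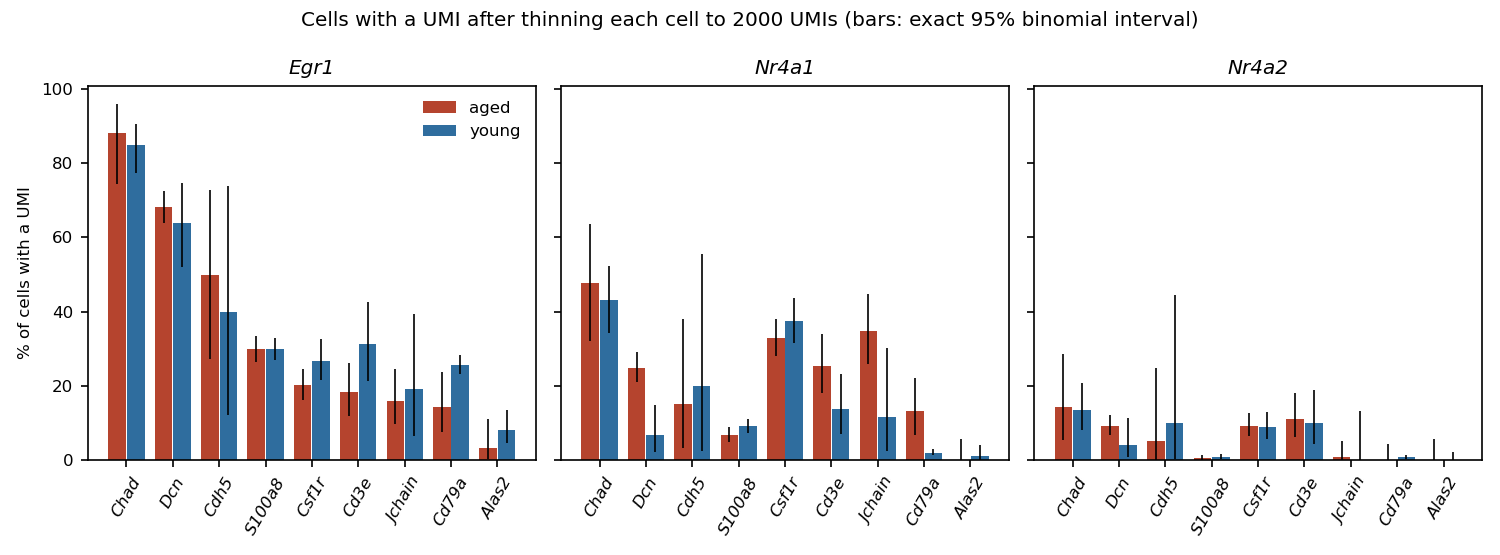
Share of cells with a UMI of Egr1, Nr4a1 or Nr4a2 (y axis, percent) after each cell was thinned to 2000 UMIs, by marker gate, aged in red and young in blue, with exact 95% binomial intervals. Egr1 was found in 64.0% to 88.1% of Chad and Dcn cells with overlapping intervals between the libraries, while the Nr4a1 share was 24.8% in aged and 6.67% in young Dcn cells.

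Egr2 was higher in the aged library in Dcn cells, as Egr1 was, but lower in Chad cells on unthinned counts. Dcn cells held 98 UMIs (31.7 CPM) in the aged and 7 UMIs (5.29 CPM) in the young library, a log2 ratio of 2.58 (1.49 to 3.94). Chad cells held 20 UMIs (65.2 CPM) and 190 UMIs (106 CPM), a ratio of -0.69 (-1.44 to -0.03). Undivided stromal cells gave 34.8 and 63.1 CPM, a ratio of -0.86 (-1.20 to -0.52). The direction of Egr2 in stromal cells thus turned with the kind of cell counted, and in Chad cells also with thinning. After thinning, 4.75% of aged and 0 of 75 young Dcn cells held an Egr2 UMI, where 0 of 75 allows up to 4% by a count of 3 and 4.80% by the exact interval, so that the shares could not be told apart. On thinned counts, 26 UMIs against 0, the Dcn ratio was at least 0.49, a lower bound with the young count set at the floor of 3.

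The other NR4A genes were also higher in aged Dcn cells. Nr4a2 gave 211 UMIs (68.3 CPM) against 28 UMIs (21.2 CPM), a log2 ratio of 1.69 (1.12 to 2.31). In Chad cells it was lower in aged, 94.6 against 132 CPM, a ratio of -0.48 (-1.09 to 0.08) whose interval held no difference. Nr4a3 gave 73 UMIs in the aged and none in the young Dcn cells. Against a floor of 3 counts per library, it was at least 10.4-fold higher in aged. After thinning, 2.81% (1.503 to 4.75) of aged and 0 of 75 young Dcn cells held an Nr4a3 UMI. The limit on 0 of 75 is that given for Egr2, so that these shares could not be told apart. An Nr4a2 UMI was held by 9.07% (6.62 to 12.1) of aged and 4% (0.83 to 11.2) of young ones, the last being 3 cells. In Chad cells 14 and 28 Nr4a3 UMIs gave 45.7 and 15.6 CPM, a ratio of 1.55 (0.51 to 2.53).

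The gated stromal cells of the 2 libraries were not alike in other genes. Aged Dcn cells held 2501 CPM of Col1a1 (type I collagen), 113 of Postn (periostin), 288 of Pi16 (a marker of adventitial fibroblasts), 1926 of Ccl2 (a monocyte chemokine) and 4760 of Prg4 (lubricin), where young ones held 50621, 2417, 51.4, 436 and 1082. Aged Chad cells held 39.1 CPM of Col2a1 (type II collagen), 18385 of Dcn and 18137 of Prg4, where young ones held 8470, 924 and 10107. Igh-6, an immunoglobulin heavy chain gene, was at 1608 CPM in aged Dcn and 26.1 in aged Chad cells, and at 0 and 1.67 in the young ones. The part of this make-up in the EGR and NR4A values was not tested, but the values within narrower groups follow. The narrower groups were chosen after their values were seen.

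Among Chad cells with under 2 Col2a1 UMIs, 40 aged and 16 young cells, Egr1 was 5835 and 1224 CPM and Nr4a1 1032 and 282 CPM, log2 ratios of 2.25 (2.04 to 2.47) and 1.87 (1.43 to 2.34). In these cells Egr2 was 70.7 and 29.4 CPM, a ratio of 1.26 (-0.19 to 3.03), and Nr4a2 99.0 and 47.1 CPM, a ratio of 1.07 (-0.10 to 2.42), so that both were on the aged side, on 20 and 5 UMIs of Egr2 and 28 and 8 of Nr4a2. The Col2a1-positive Chad cells were 2 aged and 109 young cells. Among Dcn cells with at least 10 Col1a1 UMIs, 211 aged and 71 young, Egr1 was 2460 and 1002 CPM (log2 ratio 1.30, 1.20 to 1.39) and Nr4a1 236 and 39.9 CPM (2.57, 2.13 to 3.02). In the aged library both genes were at a higher level in the cells with more Ccl2. With at least 5 Ccl2 UMIs (94 aged, 17 young cells) Egr1 was 5429 and 1231 CPM and Nr4a1 634 and 64.9 CPM, and with fewer (422 and 59 cells) Egr1 was 1860.5 and 908 CPM and Nr4a1 274 and 34.6 CPM. Dcn cells were also split by Prg4, a gene of the lining and surface layers. With at least 2 Prg4 UMIs (244 and 20 cells) Egr1 was 3286 and 915 CPM, and with fewer (272 and 56 cells) 1921 and 1018 CPM. Dcn cells with Pi16 (93 and 14 cells) were low for Egr1 and Nr4a1, at 1225 and 460.5 CPM of Egr1 and 119.99 and 11.8 CPM of Nr4a1, the last from 3 UMIs. Nr4a2 there held 3 UMIs in each library. In each of these groups Egr1 and Nr4a1, where given, were higher in the aged library.

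**Figure D4:**
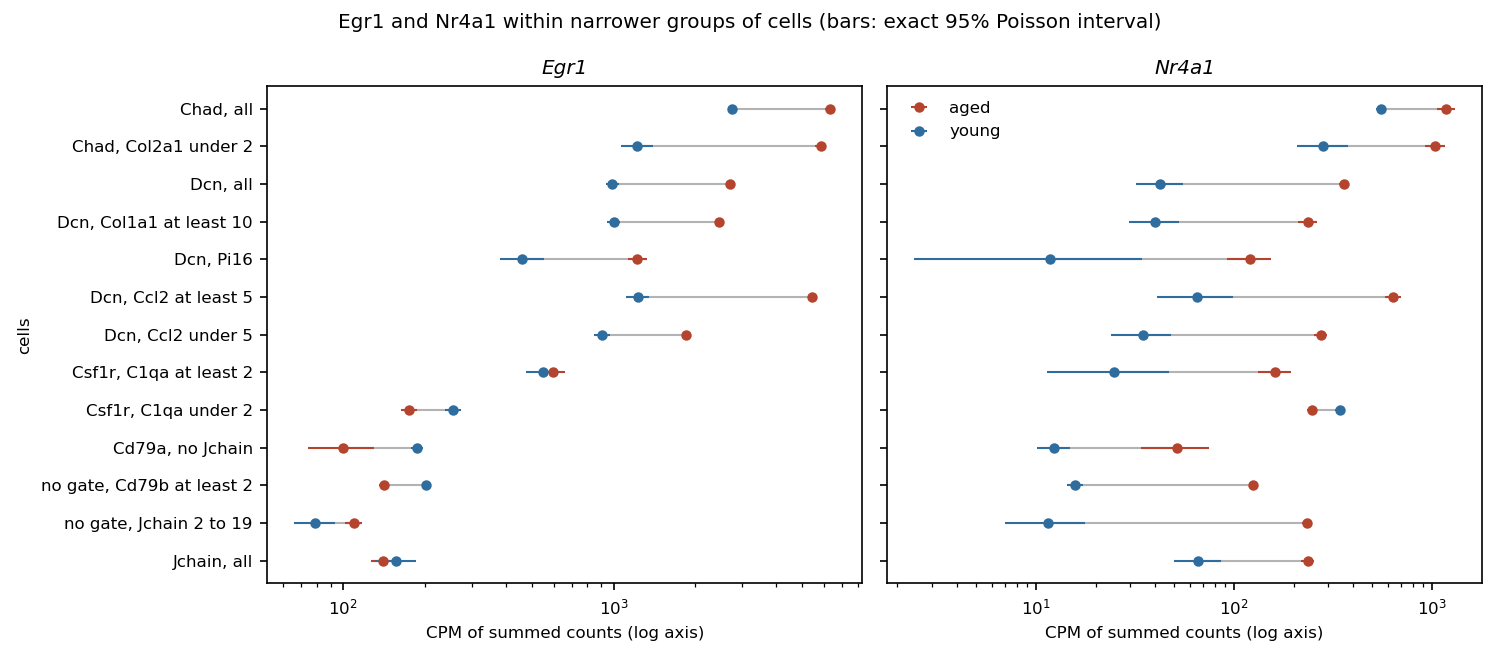
Egr1 (left) and Nr4a1 (right) as CPM of summed counts on a log axis in all Chad, Dcn and Jchain cells and in narrower groups of cells (y axis), aged in red and young in blue, joined by a grey line, with exact 95% Poisson intervals. The aged point lies to the right of the young one for both genes in every Chad and Dcn group, and for Nr4a1 in every group drawn apart from Csf1r cells with under 2 C1qa UMIs.

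Csf1r cells, monocytes and macrophages by their markers, were the immune cells richest in Nr4a1 in the young library, and no gene reached 2-fold there on unthinned counts. Egr1 was 231 CPM in aged and 284 in young cells (log2 ratio -0.30, -0.42 to -0.18), Nr4a1 237 and 313 (-0.40, -0.52 to -0.29), Nr4a2 46.0 and 58.9 (-0.36, -0.63 to -0.08), and Nr4a3 14.6 and 10.6 (0.46, -0.11 to 1.06). The median of all 9241 measured genes was -0.13 in this gate. The Egr1 direction was not stable. After thinning to 2000 UMIs, 371 aged cells held 233 Egr1 UMIs and 261 young ones 147, which is more per cell in the aged. With cells of more than 1 gate kept the Egr1 ratio was 0.25. On thinned counts Nr4a2 turned to 0.11, and Nr4a3 reached 1.08 on 15 and 5 UMIs. Cells with at least 2 UMIs of C1qa, a complement gene of tissue macrophages (89 aged, 30 young), and the others (287 and 236) were also chosen after their values were seen. The C1qa group held more Egr1, 598 and 547 CPM against 175 and 255 in the rest. It held less Nr4a1, 161 and 24.9 CPM against 248 and 345 in the rest, and the young value rests on 9 UMIs. Nr4a1 was therefore higher in aged within C1qa cells (2.69, 1.71 to 3.86) and lower in aged in the others (-0.47, -0.59 to -0.35). The summed CPM of 4 nonclassical monocyte markers (Cx3cr1, Spn, Ace and Itgal) in Csf1r cells was 109 in the aged library and 205 in the young. Most of it was Spn, at 97.9 and 178 CPM, and Ace was at 0 and 0.27. Spn was also at 130 CPM in young Cd3e cells. The part of nonclassical monocytes in the lower aged Nr4a1 was not tested.

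In B lineage cells Nr4a1 was higher and Egr1 lower in the aged library. Nr4a1 in Cd79a cells was 113 CPM in the aged library (114 UMIs in 101 cells) and 12.1 CPM in the young (130 UMIs in 1185 cells), a log2 ratio of 3.22 (2.85 to 3.60), or 9.34-fold. Egr1 in the same cells was 101 and 169 CPM, a ratio of -0.74 (-1.04 to -0.45), in a gate where the median of all genes was -0.50. Nr4a2, at 3.97 and 4.94 CPM (-0.31, -2.24 to 1.13), was not on the side of Nr4a1, and its interval held no difference. The Cd79a cells of the 2 libraries were not alike in other genes. Igh-6 was 15325 CPM in the aged and 2.98 in the young, and the 7 plasma cell markers summed to 1029 and 347 CPM. The part of this make-up in the Nr4a1 and Egr1 values was not tested. Aged Cd79a cells with any Jchain, the joining chain of secreted antibody, were 19 of the 101 and held 87 of the 114 Nr4a1 UMIs. The 82 aged and 1083 young cells without a Jchain UMI gave 51.7 and 12.3 CPM, a ratio of 2.07 (1.40 to 2.69). Jchain cells, antibody-secreting cells, held 236 CPM of Nr4a1 in the aged and 66.1 in the young library (1.83, 1.44 to 2.25) and 140.2 and 157 CPM of Egr1 (-0.16, -0.45 to 0.13). The median of all genes in Jchain cells was -0.78, and median-of-ratios scaling turned the Egr1 ratio there to 0.64. Nr4a2 in Jchain cells, 22 UMIs against 1, gave a ratio of 2.78 with an interval from 0.16 to 8.15. All of those 22 UMIs lay in at most 11 of the 106 aged cells, 11 of them in 1 cell.

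Ungated cells were then read in groups that were chosen after their values were seen. The 2668 aged and 5176 young ungated cells with at least 2 Cd79b UMIs held 125 and 15.7 CPM of Nr4a1, a log2 ratio of 2.99 (2.85 to 3.14), and 142 and 202 CPM of Egr1, a ratio of -0.51 (-0.58 to -0.44). Of the aged Nr4a1 UMIs 92.9% lay in 267 of the 2668 cells, and all young ones lay in at most 518 of 5176. The 7 plasma cell markers summed to 1284 CPM in this aged group and 369 in the young. The part of antibody-secreting cells in the Nr4a1 ratio was not tested. Ungated cells with 2 to 19 Jchain UMIs, 303 aged and 58 young, held 233 and 11.5 CPM of Nr4a1 and supplied 1605 of the 3820 Nr4a1 UMIs of all ungated aged cells. This group was not kept apart from the Cd79b group, so both can hold the same cells. Ungated cells held 48.2% of all Nr4a1 UMIs in the aged library and 21.0% in the young. Immunoglobulin RNA was found outside the B lineage in both libraries. Igh-6 was 3750 CPM in aged and 768 in young S100a8 cells, and 2926 and 2.17 in Csf1r cells. In Alas2 cells it was 8585 CPM in the aged library and 0.965 in the young. Nr4a1 in those Alas2 cells was 6.30 and 5.31 CPM. The part of RNA carried over between cells in the Nr4a1 values was not tested.

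In Cd3e cells Nr4a1 was 180.3 CPM in the aged and 96.6 in the young library (log2 ratio 0.90, 0.46 to 1.35), while Egr1 was 131 and 236 CPM (-0.85, -1.24 to -0.47). Nr4a2 was 81.9 and 60.6 CPM (0.44, -0.17 to 1.05), and Nr4a3 34.3 and 15.9 CPM, from 23 and 11 UMIs (1.11, 0.02 to 2.30). The share of Cd3e cells with a thinned Nr4a1 UMI was 25.4% (18.1 to 33.9) in aged and 13.75% (7.07 to 23.3) in young cells. In S100a8 cells Egr1 was 337 and 299.6 CPM (0.17, 0.06 to 0.28) and Nr4a1 77.4 and 76.8 (0.01, -0.22 to 0.24). The S100a8 values hid opposite parts. Cells with at least 10 UMIs of Ltf or Camp, granule genes of neutrophil precursors (541 aged, 823 young, a group chosen after its values were seen), held 334 and 222 CPM of Egr1. The split rests on Camp, since the Ltf level of S100a8 cells was 0 in the aged library and 0.574 CPM in the young. The others (237 and 323) held 346 and 561 CPM. For Nr4a1 the values were 66.3 and 37.7 CPM in the former and 112 and 209 CPM in the latter. In Cdh5 cells, endothelial by their markers, 23 aged and 10 young cells held 1286 and 1757 CPM of Egr1 (-0.45, -0.81 to -0.09), and 51.3% of the young UMIs lay in 1 cell. With the gate at 1 UMI the Egr1 ratio turned to 0.42, and that of Nr4a1 went from 0.41 to 4.16 on 36 and 1 UMIs.

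The stromal cells were the source of 57.01% of the aged and 33.4% of the young Egr1 UMIs although they were 9.17% and 2.29% of kept cells. Within a gate the UMIs were unevenly held. The 52 of 516 aged Dcn cells with most Egr1 held 47.3% of its UMIs and the 8 of 76 young ones 41.6%, and for Nr4a1 the top cells of the same number held 72.1% and 66.1%. In Csf1r cells the top 38 of 376 aged and 27 of 266 young cells held 80.7% of the aged and 62.0% of the young Egr1 UMIs, with up to 125 and 130 UMIs in 1 cell. A cell with no UMI at this depth may still express the gene.

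Cells with several of the 6 genes were most frequent in Chad cells. After thinning, 52.4% (36.4 to 68.0) of aged and 51.2% (42.1 to 60.2) of young Chad cells held at least 2 of them, against 29.8% (25.7 to 34.2) of aged and 9.33% (3.84 to 18.3) of young Dcn cells. At least 3 genes were found in 7.34% of aged and 0% of the 75 young Dcn cells. In Csf1r cells 13.7% and 15.3% held at least 2, and in Alas2 cells 0% and 0.585%. In stromal cells Nr4a1 was found mostly where Egr1 was. Of the 115 aged Dcn cells with an Nr4a1 UMI, 92.2% also held Egr1, against 60.3% of those without, and in young Chad cells the shares were 96.3% and 76.1%. Nr4a1 was itself found in 11 of the 13 aged Dcn cells with an Nr4a3 UMI (84.6%), against 23.1% of the others. In Csf1r cells Egr1 was found in 20.5% of aged cells with Nr4a1 and 20.1% without, and in 26.5% and 27.0% of young cells. The Csf1r cells with an Nr4a2 UMI held Nr4a1 in 55.9% of aged and 47.8% of young cells, against 30.6% and 36.6% of those without. These are shares of cells within 1 library each and carry no test.

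**Figure D5:**
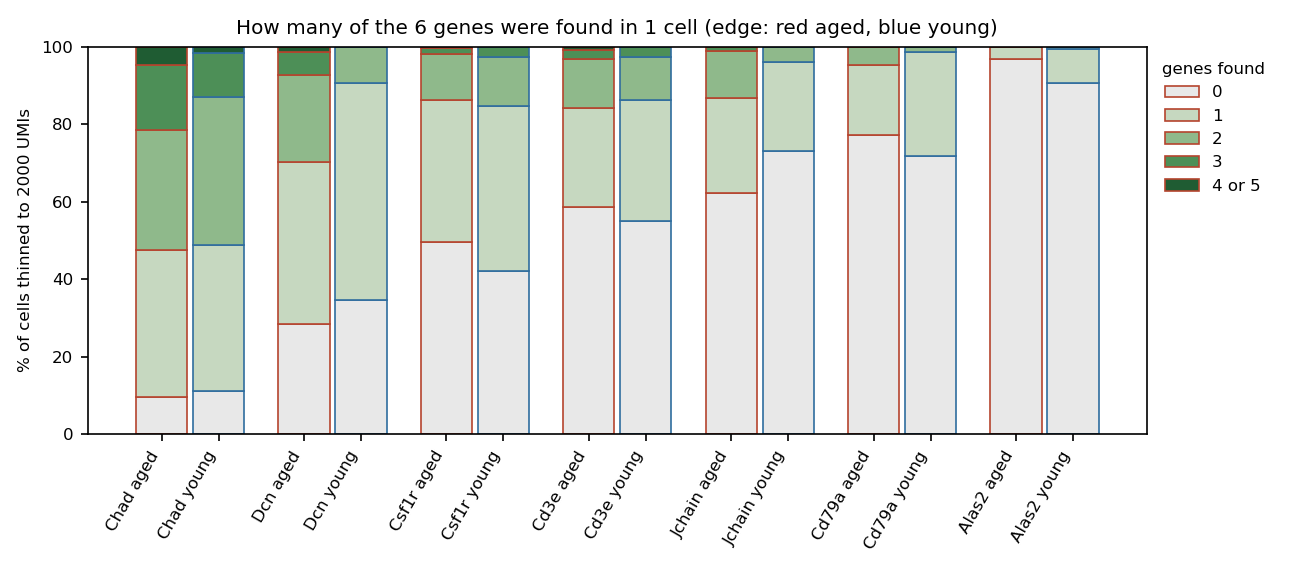
Share of cells (y axis, percent of cells thinned to 2000 UMIs) in which 0, 1, 2, 3, or 4 or 5 of the 6 genes were found, by gate and library. At least 2 genes were found in 52.4% of aged and 51.2% of young Chad cells, and in 29.8% of aged but 9.33% of young Dcn cells.

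Egr1 made up at least 90.5% of the EGR UMIs of every gate and library, the lowest value being that of young Jchain cells. Egr2 gave 3.71% (3.21 to 4.26) of them in young and 1.02% (0.63 to 1.57) in aged Chad cells. Of the NR4A UMIs, Nr4a1 gave 79.6% in aged and 81.8% in young Csf1r cells. Cd3e cells had the most mixed set, with 60.8% Nr4a1, 27.6% Nr4a2 and 11.6% Nr4a3 in aged and 55.8%, 35% and 9.17% in young cells. The number of Egr1 UMIs per Nr4a1 UMI differed among gates. It was 5.36 in aged and 4.96 in young Chad cells and 0.974 and 0.906 in Csf1r cells, 4.36 and 3.90 in S100a8 and 5 and 6.27 in Alas2 cells. Between the libraries it differed more in Dcn (7.53 and 23.4), Jchain (0.595 and 2.38), Cd3e (0.727 and 2.45) and Cd79a cells (0.895 and 13.9).

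Genes that act with the EGR and NR4A factors were read from lists of regulators, feedback genes and targets. In stromal cells the partner list (Egr4, the NAB corepressors and the RXR receptors) had 4 of 6 measured, 1 higher in aged and 0 lower, with a median log2 ratio of 0.29 beside 0.05 for all measured genes, of which 9.91% were higher and 8.54% lower, the shares against which each stromal count below is read (9.67% and 18.3% in Chad, 9.44% and 6.86% in Dcn cells). The gene higher was Egr4, the remaining EGR family member, with 63 UMIs in the aged and 1 in the young library (ratio 5.86, 3.33 to 11.2), all 63 in Dcn cells. Of the SRF ternary complex and CREB regulators 8 of 12 were measured and none differed by 2-fold (median 0.27). In Dcn cells 1 of 8 was higher, Creb1, the CREB factor itself, at 7.77 and 3.78 CPM from 24 and 5 UMIs (1.04, -0.38 to 2.79). Srf itself, with 47 and 62 UMIs, was 13.8 and 19.9 CPM. In Chad cells Srf had 0 aged and 41 young UMIs, which is at least 2.33-fold lower in aged against the floor of 3.

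The ERK feedback genes, phosphatases and Sprouty proteins that ERK signalling switches on and that damp it, differed in more members in Dcn than in Chad cells. In Dcn cells 4 of 7 measured genes were higher in aged and 0 lower, with a median of 1.10 beside -0.02 for all genes. Spry1 was 113 and 34.8 CPM (log2 ratio 1.70), Dusp1 2055 and 665 CPM (1.63) and Dusp5 14.6 and 6.05 CPM (1.27), while Dusp6 was 60.5 and 89.99 CPM (-0.57). In Chad cells 1 of 5 was higher, Spry1 at 75.03 and 6.11 CPM (3.62), and Dusp1 was 2042 and 1968 CPM (0.05). The cAMP- and CREB-responsive list had 2 of 5 measured genes higher in stromal cells, 0 lower and a median of 0.76. The genes were Sik1, a CREB-induced kinase, at 56.5 and 20.2 CPM (1.49), and Pde4b, a cAMP phosphodiesterase, at 45.4 and 20.5 CPM (1.15).

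Among 11 measured genes listed as EGR1 targets, 4 were higher in aged stromal cells and 0 lower, with a median of 0.58. Icam1, an adhesion molecule, was 144 and 25.6 CPM (log2 ratio 2.49), and Cd44, the hyaluronan receptor, 129.6 and 28.8 CPM (2.17). In Chad cells 5 of 11 were higher, led by F3, the tissue factor of clotting, at 121 and 3.89 CPM (4.96), and 1 lower. In Dcn cells 4 were higher and 0 lower, with Icam1 at 139.5 and 14.4 CPM (3.28). Mmp14, a membrane collagenase, went the other way, with 0 aged and 87 young UMIs in Chad cells (at least 4.94-fold lower in aged) and 136 and 232 CPM in Dcn cells (-0.77). Other immediate early genes differed in both directions in stromal and Chad cells, but not in Dcn cells. In Dcn cells 3 of 10 were higher in aged and 0 lower, with a median of 0.70 beside -0.02 for all genes. The 3 were Fosl1 (log2 ratio 3.30), Atf3 (2.54) and Junb (1.19). In stromal cells 3 of 10 were higher in aged (Atf3 1371 and 422 CPM, Myc and Fosl1) and 1 lower (Fosb 1332 and 2734 CPM, -1.04). In Chad cells 4 of 10 were higher in aged and 2 lower, with a median of 0.61 beside -0.19 for all genes. Those higher were Fosl1 (1.97), Myc (1.73), Atf3 (1.46) and Junb (7725 and 3568 CPM, 1.11). Those lower were Fos (2642 and 5464 CPM, -1.05) and Fosb (1435 and 3719 CPM, -1.37). Heat shock genes, which respond to dissociation, gave 2 of 7 higher (Hspa1b 956 and 235 CPM, Hspb1 837 and 332 CPM) and 1 lower (Hspe1) in stromal cells, with a median of 0.27. Hspb1, a small chaperone, was 1960.5 and 258 CPM in Chad and 725 and 433 CPM in Dcn cells. Their part in the EGR and NR4A values was not tested.

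The genes whose level was most like each member over the 18 sums of 9 gates and 2 libraries were ranked by Pearson's r of log2(CPM + 10), among 3531 genes with at least 100 CPM in a sum. These sums share libraries and depth, so r is given as a description. For Egr1 the leading genes were Cst3 (0.93), Foxc1 (0.93), Clu (0.93), Htra1 (0.93) and Pam (0.92), and over the 14 sums of at least 50 cells the 5 values lay between 0.89 and 0.92. Egr2 was most like Tnfrsf11b, Smoc2, Zfp385b, Cilp and Edil3 (0.92 to 0.94), although only 4 of its sums held 20 UMIs. Nr4a1 was less closely matched, by Insig1 (0.85), Spint2 (0.85), Gadd45b (0.85), Junb (0.82) and Nr4a2 (0.79). Nr4a2 was most like Insig1 (0.88), Bhlhe40 (0.86), Avpi1 (0.85), Shisa5 (0.84) and Fxyd5 (0.84), and Nr4a3 like Bhlhe40 (0.88), Nr4a2 (0.87), Insig1 (0.83), Csrnp1 (0.81) and Msmo1 (0.78). Between the members themselves r was 0.87 for Nr4a2 and Nr4a3, 0.71 for Egr1 and Nr4a1 and 0.67 for Egr1 and Egr2.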

How the data were processed

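Droplet 3' libraries of rat meniscus, 1 aged and 1 young, were analysed from the deposited matrices of UMI counts, whole numbers per gene and barcode that the authors did not normalise, made with Cell Ranger 6.1.1 per the submitters' processing notes. The sources used here name neither build nor annotation. The matrices hold 47228750 aged and 65051972 young UMIs. Barcodes were kept from 500 detected genes and up to 20% of UMIs in the 13 mitochondrial genes (6085 of 8422 aged and 8773 of 9914 young barcodes). Gates needed 2 UMIs (Jchain 20, S100a8 50), and the Cd79a gate fewer than 20 Jchain UMIs. Cells in more than 1 gate (57 aged, 109 young) were left out, and no doublet caller was run, so doublets within a gate remain. The median cell of a gate held between 3147 and 31140 UMIs.

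Counts were summed per library and gate and scaled to CPM (per 1000000). The log2 ratio of aged over young carries an exact conditional binomial interval at 95%, and shares carry Clopper-Pearson intervals. A library at 0 was set to a floor of 3 counts, and no fold was given where both libraries held 3 counts or fewer. Shares of cells were compared after thinning to 2000 UMIs, leaving out shallower cells (53 of 516 aged and 1 of 76 young Dcn cells). The interval was run on simulated independent Poisson counts, the model it assumes. That run says nothing of UMIs held unevenly by cells. There is 1 library per age, so no test was made. The genes named beside the 6 members were, per list and gate, up to 3 at least 2-fold apart in each direction in stromal, Chad or Dcn cells, and 5 genes per member by correlation, with 1 list gene not reported here; Dusp6, Srf, Dusp1 and Mmp14 in further gates, Fos and Junb in Chad cells, and the make-up genes were chosen after their values were seen. Members, gates and lists were chosen with earlier results of these data known. Alternatives covered gates, cell filters, scaling (edgeR 4.0.16 TMM, DESeq2 1.42.0 median of ratios), thinning and count minimum, with Python 3.11.15, numpy 2.4.6, scipy 1.17.1 and R 4.3.3.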

Additional observations from a re-analysis of the deposited data

Results flagged for a closer look

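For 4 of the 6 genes the aged over young ratio pointed in opposite directions in different gates, with counting intervals on opposite sides of 0. The difference between gates was not tested, since each age has 1 library. Egr1 ran from a log2 ratio of 1.44 in Dcn cells to -0.85 in Cd3e cells. Egr2 ran from 2.58 in Dcn cells to -0.69 in Chad cells, but the Chad value turned to 1.26 in cells with Col2a1 under 2 UMIs. On thinned counts the Chad value also lay on the aged side, and the Dcn value was a lower bound of 0.49. Nr4a1 ran from 3.22 in Cd79a cells to -0.40 in Csf1r cells. Nr4a2 ran from 2.78 in Jchain cells, which rests on 1 young UMI, to -0.36 in Csf1r cells, which turned to 0.11 on thinned counts.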

How the results depend on the processing

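Of 432 alternative values for 36 gene and gate ratios, 341 stayed within the counting interval of the reported value, 37 had the other sign, and 1 of these was of a ratio of at least 2-fold. This was Nr4a2 in Jchain cells, which became -0.063 when 2 in place of 20 Jchain UMIs made the gate. The count of genes higher in aged stromal cells became 0 on counts thinned to 2000 UMIs, and the count in Dcn cells became 3, since Nr4a3 held 17 UMIs, under the minimum of 20, and Egr2 held none in the young cells, which gives only a lower bound (0.49). The 5 pairs higher in aged became 3 with gates of 3 UMIs, without the deepest 8% of cells, or with a minimum of 50 counts. The count of pairs lower in aged became 1 with gates of 1 UMI, gates of 3 UMIs, at least 1000 genes and at most 10% mitochondrial UMIs, per-cell means, or thinned counts. In Chad cells Egr2 and Nr4a2 changed sign to 1.26 and 1.07 with Col2a1 under 2 UMIs, an alternative added after seeing the data. Egr2 in Chad cells also changed sign on thinned counts, with 7 UMIs in 42 aged and 16 in 125 young cells. Without the deepest 8% of cells Nr4a1 in Jchain cells was 0.999, just under 2-fold. Over these alternatives Nr4a1 in Dcn cells stayed between 2.57 and 3.25 and Egr1 there between 1.19 and 1.48. The narrower groups of Dcn cells, not counted among the alternatives apart from that of Col1a1, went outside these ranges. Egr1 was 0.92, under 2-fold, with Prg4 under 2 UMIs and 2.14 with Ccl2 at least 5. Nr4a1 was 2.11 with Prg4 under 2 UMIs and 3.35 with Pi16. TMM scaling moved all log2 ratios by 0.50 in Cd79a, 0.80 in Jchain, 0.26 in S100a8, 0.12 in Csf1r, 0.26 in Cd3e, 0.17 in Chad and -0.32 in Alas2 cells and by under 0.1 in Dcn and stromal cells, and median-of-ratios scaling took Egr1 in Jchain cells to 0.64 and in Cd79a cells to -0.22. No paired analysis was possible because each age has 1 library.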

Other observations

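Outside the stromal cells the pathway lists gave the following counts. In Csf1r cells 4 of 8 measured EGR1 targets were at least 2-fold higher in aged and 0 lower, with a median log2 ratio of 0.80 beside -0.13 for all genes. By the same rule 5.36% of all genes were higher and 6.11% lower. Egr1 itself was at -0.30 in these cells, but lay on the aged side on thinned counts. In S100a8 cells 2 of 7 EGR1 targets were higher, 0 lower, with a median of -0.15 beside -0.27 for all genes, of which 3.66% were higher and 12.2% lower. In Cd79a cells the ERK feedback list had 0 of 8 higher and 3 lower (median -0.67 beside -0.50), and the cAMP- and CREB-responsive list 1 of 6 higher and 0 lower (median 0.40), where 1.95% of all genes were higher and 20.8% lower. These lists were chosen with earlier results of these data known.

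Summed over all kept cells, whatever their kind, Egr1 was 417 CPM in the aged and 303 CPM in the young library, Nr4a1 184 and 66.7, Nr4a2 26.3 and 15.2, Nr4a3 8.50 and 2.15, and Egr2 4.70 and 5.84. Egr3 was 0.672 and 1.42 CPM, from 29 and 88 UMIs, a log2 ratio of -1.08 (-1.74 to -0.46). The share of all genes past 2-fold was not counted for these sums. These totals mix the levels in each gate with the numbers of cells.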
